A study of Mus musculus with 12 samples.

Results

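Interferon-stimulated genes were followed as a module of 45 listed mouse genes, taken as the rows of the deposited gene table whose gene name is on the list. Of the 45, 44 had a row among the 27487 rows of the table, and Ifih1 was not analysed here. The RNA came from BV2 cells, an immortalised mouse microglial line, that had been grown alone (labelled CTR), with primary mouse neutrophils (labelled Neu), or with primary mouse neutrophils given phorbol 12-myristate 13-acetate, PMA, so that they release neutrophil extracellular traps (labelled Neu+NETS). Each of the 3 groups had 4 libraries of poly(A) RNA, and the question of the study was how neutrophils and their traps act on microglia. Traps are webs of chromatin and granule proteins that neutrophils cast out. PMA activates protein kinase C, no group of BV2 cells given PMA alone was analysed here, and the sources do not say whether PMA was carried into the co-culture. They also leave out the contact time, the ratio of the cell types and any step to remove neutrophils before lysis, and nothing says that the 4 libraries of a group came from separate cultures. The p-values therefore reflect library-to-library spread alone, and that spread may be technical.

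Type I interferons bind the receptor IFNAR1/IFNAR2, whose kinases JAK1 and TYK2 phosphorylate STAT2. A complex that holds STAT2 and IRF9 binds a promoter element, the interferon-stimulated response element (ISRE), upstream of a large set of genes. The products block viral replication, sense viral RNA, or feed back on the pathway, and microglia are known to keep part of this program on at a low level in the absence of infection.

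Promoter letters are shown first because type I interferon acts on its target genes through this element. RefSeq promoter windows (assembly GRCm38.p6, the 250 bases before the gene start) were matched by symbol for 36 of the 44 members. The ISRE was searched as the letters GAAA, any 2 bases and GAAA again, on either strand, with overlapping matches allowed. It was present in the window of 16 of 36 members, or 44.4%, against 3.46% of all 27025 genes with a window (2.98% of all 32851 windows). The letters of GAS, the interferon-gamma activated site (TTCNNNGAA), were found in 8 of 36 members, or 22.2%, against 8.13% of all genes. Those of the element shared by ETS and IRF factors, EICE (GGAA, any 2 bases and GAAA), were found in 3 of 36, or 8.33%, against 2.68%. An EICE match and an ISRE match can share bases. A match is a description of letters and not of binding.

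For 8 of the members that hold the ISRE letters, 100 bases of the window are printed, with those letters in capitals. They read 5′ to 3′ on the strand of the gene. Members with calls of opposite sign below but no match, such as Isg20 and Trim25, are not printed. A match read from the opposite strand appears as its reverse complement, and matches that overlap run together. The intervals are chr4:156200836-156200935 on the minus strand for Isg15, chr19:34640749-34640848 on the plus strand for Ifit1, chr19:34583345-34583444 on the plus strand for Ifit3, chr19:34607741-34607840 on the plus strand for Ifit3b, chr11:48871421-48871520 on the minus strand for Irgm1, chr3:142559944-142560043 on the plus strand for Gbp3, chr10:128270248-128270347 on the plus strand for Stat2 and chr5:120777680-120777779 on the minus strand for Oas3.
Isg15: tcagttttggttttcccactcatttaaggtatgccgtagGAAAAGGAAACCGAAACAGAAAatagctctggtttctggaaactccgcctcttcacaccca
Ifit1: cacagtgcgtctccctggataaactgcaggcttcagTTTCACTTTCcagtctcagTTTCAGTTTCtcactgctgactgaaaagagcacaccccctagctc
Ifit3: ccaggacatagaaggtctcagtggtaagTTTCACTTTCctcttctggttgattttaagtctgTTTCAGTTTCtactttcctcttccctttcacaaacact
Ifit3b: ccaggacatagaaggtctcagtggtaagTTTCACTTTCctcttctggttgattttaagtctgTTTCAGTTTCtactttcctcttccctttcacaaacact
Irgm1: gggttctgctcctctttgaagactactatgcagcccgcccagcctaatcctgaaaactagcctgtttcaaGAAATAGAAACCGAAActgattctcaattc
Gbp3: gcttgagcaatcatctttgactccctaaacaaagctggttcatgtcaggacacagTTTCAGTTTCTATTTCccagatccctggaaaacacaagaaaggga
Stat2: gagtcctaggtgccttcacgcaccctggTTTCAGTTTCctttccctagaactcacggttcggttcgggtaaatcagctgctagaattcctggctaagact
Oas3: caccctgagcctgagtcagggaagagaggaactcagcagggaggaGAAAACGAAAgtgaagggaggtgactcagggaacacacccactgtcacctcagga
Isg15 holds 3 overlapping matches, whose first bases lie 78, 72 and 66 bases before the gene start. Irgm1 and Gbp3 each hold 2 overlapping matches, close to the start at 30 and 24 bases and at 45 and 39 bases. Ifit1 holds 2 separate matches at 104 and 85 bases, and Ifit3 holds 2 at 156 and 122 bases. The printed windows of Ifit3 and Ifit3b differ at 0 of 100 bases. Stat2 has 1 match at 222 bases and Oas3 has 1 at 75 bases.

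Levels are given in FPKM, fragment counts scaled by transcript length and library depth, so they can be set side by side between genes. Changes are log2 fold changes with their standard error (SE) from edgeR's quasi-likelihood test on the deposited estimated counts. A log2 ratio of mean FPKM can differ from the fitted change. The median difference over members, ratio minus fit, was -0.056 for Neu against CTR and 0.0485 for Neu+NETS against CTR. Between the co-cultures it was 0.105. The ratio and the fit differed in sign for 0 of the calls. P-values are adjusted by the Benjamini-Hochberg method over the 16387 genes tested, and "rose" or "fell" means an adjusted p under 0.05. Where 2 changes follow each other unlabelled, the first is Neu against CTR and the second is Neu+NETS against CTR. Total estimated counts ran from 53512190 to 68316549 per library. A filter on low counts kept 43 of the 44 members. Cmpk2, a mitochondrial nucleotide kinase, was removed by it. Its deposited row read 0.0629, 0.00, 0.00 and 0.0167 FPKM in CTR, at most 0.0163 FPKM in Neu and 0.00 in all 4 Neu+NETS libraries, with mean counts below a floor of 12 count units (3 fragments) in every group.

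The interferon module was expressed in BV2 cells grown alone, and it was lower with PMA-stimulated neutrophils than in either other group. In CTR, 43 members had a mean of at least 1 FPKM, 29 of at least 10 FPKM and 3 of at least 100 FPKM. The FPKM summed over the 44 members was 1578, 1625, 1585 and 1577 in CTR, 1345, 1361, 1339 and 1437 in Neu, and 1102, 1140, 1107 and 1093 in Neu+NETS. The 3 groups did not overlap. Bst2, Ifitm3 and Oasl1 weighed most in that sum, with CTR means of 322, 248 and 133 FPKM. As a share of all estimated counts the members took 0.473 to 0.480% in CTR, 0.433 to 0.454% in Neu and 0.334 to 0.345% in Neu+NETS. In bulk RNA such as this, fewer cells of a type and less RNA per cell cannot be told apart.

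Set against CTR, neutrophils without PMA went with a mixed picture. Of the 43 members tested, 9 rose and 22 fell with Neu, that is 20.9% higher and 51.2% lower, beside a background over all genes of 26.1% higher and 27.9% lower. The median member had a log2 change of -0.16, with a range from -1.23 to 0.77, beside a median of 0.02 over all genes. At a change of at least 1.5-fold, 3 members rose and 7 fell (all genes 12.3% higher and 9.22% lower).

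With PMA-stimulated neutrophils, 40 of the 43 members fell and 0 rose against CTR, or 93.0% lower, beside a background of 21.6% higher and 23.7% lower. DESeq2 and limma on log2 FPKM also gave 0 higher, and 0 members were higher at an unadjusted p under 0.05. The 3 that did not pass were Herc6, Eif2ak2 and Mx2. The median change was -0.59, from -2.18 to 0.056, beside 0.00021 over all genes. At 1.5-fold or more, 23 fell and 0 rose (all genes 9.90% lower and 3.84% higher).

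Between the co-cultures, 31 members were lower and 4 were higher in Neu+NETS than in Neu, or 72.1% and 9.30%, beside a background of 33.1% lower and 29.4% higher. The 4 higher were Ifi35, Ifit1, Irgm1 and Eif2ak2. The median change was -0.43, from -1.498 to 0.51, beside -0.049 over all genes. At 1.5-fold or more, 14 fell and 0 rose (all genes 19.9% lower and 13.0% higher). Each pair of these comparisons shares a group, so their values stand side by side and are not independent of each other.

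**Figure D1:**
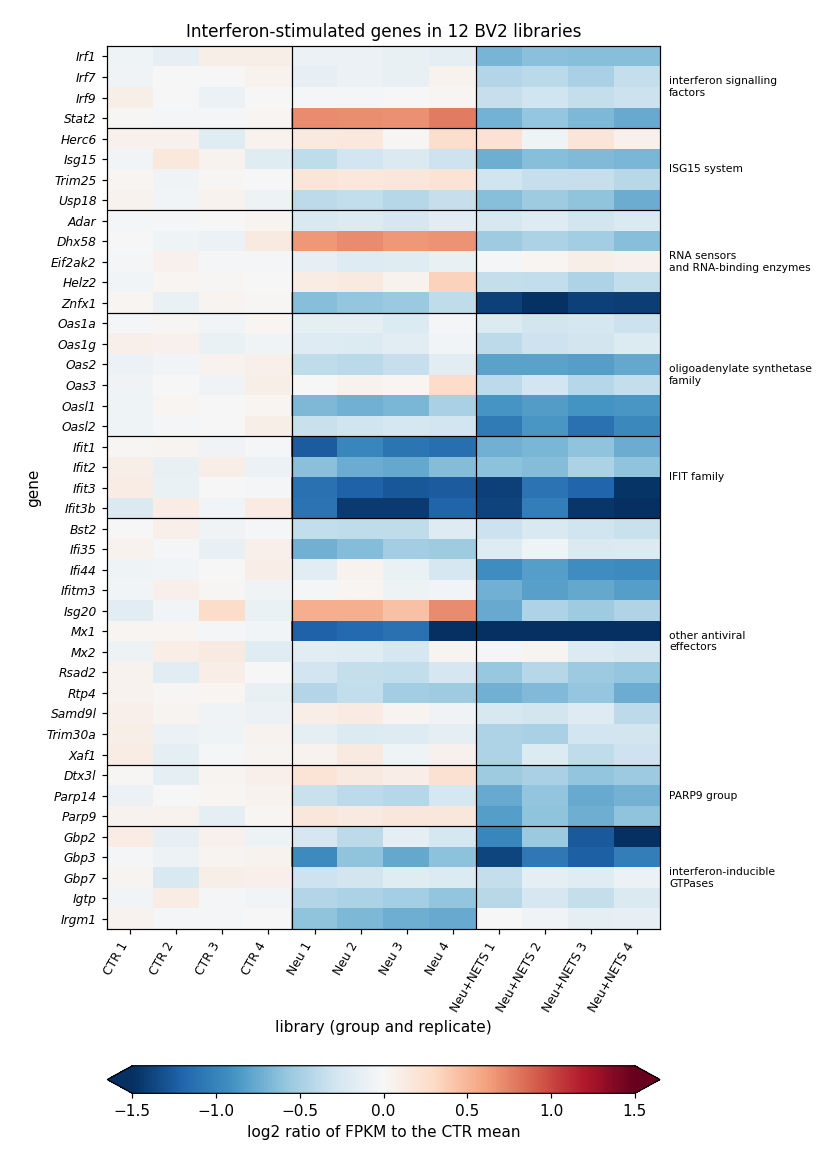
Each row is 1 of the 43 members tested, ordered by role, and each column is 1 of the 12 libraries; color is the log2 ratio of its FPKM to the mean of the 4 CTR libraries. Most rows are lower in the 4 Neu+NETS columns, and rows such as Stat2 and Dhx58 are higher in the 4 Neu columns.

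The interferon signalling factors here are STAT2 and IRF9, which carry the signal from receptor to promoter, and the factors IRF7 and IRF1. STAT2 is the subunit that ties the complex to interferon. In this group of 4, 1 rose with Neu and 3 did not pass, while all 4 fell with Neu+NETS. Over all genes, here and for the roles below, 26.1% were higher and 27.9% lower with Neu, and 21.6% and 23.7% with Neu+NETS. The 1 of 4 that rose with Neu, or 25%, is near the share of all genes. Stat2 read 9.25, 8.91, 8.999 and 9.29 FPKM in CTR, 14.8, 14.8, 14.7 and 15.6 FPKM in Neu and 5.56, 6.11, 5.70 and 5.41 FPKM in Neu+NETS. All 4 Neu libraries lay above, and all 4 Neu+NETS libraries below, every CTR library. Stat2 (ENSMUSG00000040033, GRCm39 chr10:128106428-128128718, plus strand) rose by 0.77 ± 0.039 (adjusted p = 3.2e-11) with Neu, fell with Neu+NETS with a change of -0.73 ± 0.040 (adjusted p = 1.8e-10), and was 2.82-fold lower in Neu+NETS than in Neu.

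IRF7, the factor that drives the interferon-alpha genes, was the most abundant of the 4. Irf7 read 78.7, 81.8, 81.7 and 84.7 FPKM in CTR, 75.2, 76.8, 75.9 and 85.1 FPKM in Neu and 60.5, 61.9, 58.4 and 63.7 FPKM in Neu+NETS. The CTR and Neu libraries overlapped, with Neu replicate 4 the highest of the 12, and the Neu+NETS libraries lay below both. The log2 change was -0.0071 ± 0.035 (adjusted p = 0.882) with Neu and -0.47 ± 0.035 (adjusted p = 8.4e-09) with Neu+NETS. Irf9, the DNA-binding partner of STAT2, had a log2 change of 0.046 ± 0.040 (adjusted p = 0.354) with Neu and fell with a change of -0.38 ± 0.040 (adjusted p = 5.8e-07) with Neu+NETS. Irf1, a factor induced mainly by interferon-gamma, had a log2 change of -0.049 ± 0.050 (adjusted p = 0.447) with Neu and fell with a change of -0.70 ± 0.051 (adjusted p = 7.3e-09) with Neu+NETS.

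The ISG15 system consists of ISG15, a ubiquitin-like protein attached to other proteins, USP18, the protease that removes it and also blocks IFNAR2, and the ligases HERC6 and TRIM25. Isg15 and Usp18 fell in both co-cultures, and Trim25 rose with Neu and fell with Neu+NETS. Isg15 read 94.6, 108, 101 and 86.3 FPKM in CTR, 74.7, 79.9, 84.0 and 78.6 FPKM in Neu and 58.6, 62.7, 61.7 and 60.4 FPKM in Neu+NETS. The groups ran in steps without overlap, from CTR down to Neu+NETS. Isg15 (ENSMUSG00000035692, GRCm39 chr4:156283912-156285253, minus strand) had a log2 change of -0.24 ± 0.061 (adjusted p = 0.00254) with Neu and of -0.73 ± 0.061 (adjusted p = 4e-08) with Neu+NETS.

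Usp18 read 61.0, 57.0, 60.6 and 55.7 FPKM in CTR, 44.7, 45.3, 43.6 and 46.1 FPKM in Neu and 37.5, 40.6, 38.7 and 35.1 FPKM in Neu+NETS. Usp18 also stepped down without overlap, with changes of -0.33 ± 0.042 (adjusted p = 4.3e-06) with Neu and -0.67 ± 0.043 (adjusted p = 1.2e-09) with Neu+NETS. Trim25 read 47.5, 45.1, 47.4 and 47.0 FPKM in CTR, 52.9, 52.0, 52.6 and 54.0 FPKM in Neu and 37.9, 36.9, 36.7 and 35.1 FPKM in Neu+NETS. Every Neu library was above, and every Neu+NETS library below, the CTR range. The log2 change of Trim25, a ligase that also activates the RNA sensor RIG-I, was 0.23 ± 0.029 (adjusted p = 2.5e-06) with Neu and -0.40 ± 0.029 (adjusted p = 6.8e-09) with Neu+NETS. Herc6, the main mouse ISG15 ligase, lay near 2 FPKM in every group and rose by 0.20 ± 0.082 (adjusted p = 0.0446) with Neu. That call was lost under 12 of the other settings, among them limma on log2 FPKM and leaving out CTR replicate 1, 3 or 4 or Neu replicate 1, 2 or 4, with an adjusted p of up to 0.286.

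RNA sensors and RNA-binding enzymes were split with Neu, where 2 of 5 rose and 3 fell, and 4 of 5 fell with Neu+NETS. These are 40% and 60% with Neu, beside 26.1% and 27.9% of all genes, and 80% with Neu+NETS, beside 23.7%. Dhx58 read 14.1, 13.3, 13.1 and 15.3 FPKM in CTR, 21.9, 22.9, 22.0 and 22.3 FPKM in Neu and 9.63, 10.01, 9.68 and 8.94 FPKM in Neu+NETS. The groups did not overlap. Dhx58 (ENSMUSG00000017830, GRCm39 chr11:100585710-100595097, minus strand), which encodes LGP2, a helicase that tunes the RNA sensors RIG-I and MDA5, rose by 0.73 ± 0.049 (adjusted p = 1.2e-09) with Neu and fell with a change of -0.59 ± 0.050 (adjusted p = 4.6e-08) with Neu+NETS. It was 2.502-fold lower in Neu+NETS than in Neu.

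Znfx1 read 20.5, 18.8, 20.7 and 20.3 FPKM in CTR, 12.9, 13.4, 13.7 and 15.4 FPKM in Neu and 7.62, 7.18, 7.64 and 7.56 FPKM in Neu+NETS. Znfx1, a helicase of the mitochondrial surface that senses viral RNA, stepped down without overlap. It fell with a change of -0.48 ± 0.044 (adjusted p = 7e-08) with Neu and of -1.47 ± 0.046 (adjusted p = 1.3e-13), or 2.77-fold lower, with Neu+NETS. Helz2 read 25.4, 26.7, 26.3 and 26.0 FPKM in CTR, 28.2, 28.7, 27.1 and 33.1 FPKM in Neu and 20.4, 20.2, 18.9 and 20.1 FPKM in Neu+NETS. Helz2, a helicase-domain transcriptional coactivator, lay above CTR in every Neu library and below it in every Neu+NETS library, with changes of 0.22 ± 0.044 (adjusted p = 0.00036) and -0.44 ± 0.044 (adjusted p = 3.3e-07).

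Adar read 31.8, 31.7, 32.0 and 33.1 FPKM in CTR, 27.4, 27.8, 27.0 and 28.6 FPKM in Neu and 27.3, 28.1, 26.6 and 27.6 FPKM in Neu+NETS. Adar, the enzyme that edits adenosine to inosine in double-stranded RNA, was lower than CTR in all 8 co-culture libraries, which overlapped each other. It fell with a change of -0.16 ± 0.024 (adjusted p = 3.3e-05) with Neu and -0.28 ± 0.025 (adjusted p = 7.5e-08) with Neu+NETS. The difference between the co-cultures, -0.12 ± 0.024 (adjusted p = 0.00037), was lost with limma on log2 FPKM and with scaling to library totals, with an adjusted p of up to 0.67. Eif2ak2, the kinase PKR, which halts translation on binding double-stranded RNA, had a log2 change of -0.095 ± 0.035 (adjusted p = 0.0298) with Neu, of -0.0088 ± 0.035 (adjusted p = 0.868) with Neu+NETS and of 0.086 ± 0.035 (adjusted p = 0.0409) between the co-cultures. Both of its calls were lost without Neu replicate 2 or 3 and under several scalings and filters. The Neu call was also lost without CTR replicate 2, and the call between the co-cultures without Neu replicate 4 or Neu+NETS replicate 3 or 4, with adjusted p of up to 0.239 and 0.318.

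The oligoadenylate synthetases make the second messenger that switches on RNase L, and OASL1 lacks that activity. All 6 fell with Neu+NETS, and with Neu 3 fell, 1 rose and 2 did not pass. Beside these stand 23.7% of all genes lower with Neu+NETS, and 27.9% lower and 26.1% higher with Neu. Oasl1 read 128, 136, 133 and 136 FPKM in CTR, 83.4, 80.8, 82.8 and 94.8 FPKM in Neu and 72.3, 74.6, 71.5 and 72.6 FPKM in Neu+NETS. The groups did not overlap. Oasl1 (ENSMUSG00000041827, GRCm39 chr5:115061299-115075974, plus strand), which is known to hold back the translation of Irf7, fell with a change of -0.58 ± 0.038 (adjusted p = 7.2e-10) with Neu and -0.92 ± 0.038 (adjusted p = 4.7e-12) with Neu+NETS. Oasl2, next to it on chromosome 5, fell with a change of -0.24 ± 0.043 (adjusted p = 0.00014) and of -1.05 ± 0.044 (adjusted p = 6.2e-12), the latter 2.07-fold lower.

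Oas3 read 41.4, 42.8, 41.2 and 45.6 FPKM in CTR, 43.0, 44.4, 43.5 and 51.9 FPKM in Neu and 32.7, 35.1, 31.8 and 33.4 FPKM in Neu+NETS. The Neu and CTR libraries of Oas3 overlapped, and the Neu+NETS libraries lay below both. Oas3, the largest synthetase, rose by 0.15 ± 0.048 (adjusted p = 0.0124) with Neu and fell with a change of -0.41 ± 0.048 (adjusted p = 2e-06) with Neu+NETS, and the rise did not pass with limma on log2 FPKM, with an adjusted p of up to 0.305. Oas2 fell with a change of -0.26 ± 0.046 (adjusted p = 0.0001) and -0.85 ± 0.046 (adjusted p = 1.7e-10). Oas1a fell with a change of -0.31 ± 0.036 (adjusted p = 1.9e-06) with Neu+NETS and Oas1g with one of -0.34 ± 0.051 (adjusted p = 3.2e-05), and neither passed with Neu. Their longest protein-coding transcripts (GENCODE M21) are 97.5% identical over 1860 aligned bases, so reads may have been shared and their separate values are uncertain. The difference in Oas1g between the co-cultures, -0.25 ± 0.051 (adjusted p = 0.00044), was lost with limma on unfiltered FPKM (adjusted p = 0.0629). In the Oas3, Oas2, Oas1a and Oas1g row of genes, which spans 177 kb, the changes with Neu ran from -0.26 to 0.15.

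IFIT proteins bind viral RNA that lacks host cap methylation, and the IFIT genes lie within 99.3 kb on chromosome 19. All 4 fell in both co-cultures against CTR, and at 1.5-fold or more in each case. At that fold 9.22% of all genes were lower with Neu and 9.90% with Neu+NETS. Ifit1 read 10.55, 10.8, 10.1 and 10.3 FPKM in CTR, 4.37, 5.29, 4.89 and 4.75 FPKM in Neu and 6.30, 6.48, 6.87 and 6.22 FPKM in Neu+NETS. No groups overlapped, and here the Neu libraries were the lowest. Ifit1 (ENSMUSG00000034459, GRCm39 chr19:34618271-34627409, plus strand) fell with a change of -1.05 ± 0.069 (adjusted p = 8.6e-10) with Neu and of -0.74 ± 0.068 (adjusted p = 1.3e-07) with Neu+NETS, and it was higher in Neu+NETS than in Neu by 0.32 ± 0.069 (adjusted p = 0.00066).

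Ifit2 read 18.4, 16.0, 18.6 and 16.3 FPKM in CTR, 11.2, 10.4, 10.2 and 10.996 FPKM in Neu and 11.3, 11.002, 12.4 and 11.4 FPKM in Neu+NETS. Ifit3 read 19.7, 17.0, 18.2 and 18.1 FPKM in CTR, 8.42, 7.87, 7.54 and 7.69 FPKM in Neu and 6.90, 8.48, 8.02 and 6.57 FPKM in Neu+NETS. The co-culture libraries overlapped each other for both genes and lay below every CTR library. Ifit2 fell with a change of -0.64 ± 0.056 (adjusted p = 3.6e-08) and -0.63 ± 0.056 (adjusted p = 7.8e-08), and Ifit3 (ENSMUSG00000074896, GRCm39 chr19:34560931-34566131, plus strand) with changes of -1.15 ± 0.083 (adjusted p = 2.8e-09) and -1.33 ± 0.083 (adjusted p = 9.7e-10). Ifit3b fell with a change of -1.23 ± 0.15 (adjusted p = 2.8e-06) and -1.43 ± 0.15 (adjusted p = 8.5e-07). The longest protein-coding transcripts of Ifit3 and Ifit3b are 98.0% identical over 1697 aligned bases, and the sources do not say how the counting split shared reads, so the division between them is uncertain. The difference between the co-cultures was 0.0063 ± 0.056 (adjusted p = 0.933) for Ifit2, -0.18 ± 0.083 (adjusted p = 0.0747) for Ifit3 and -0.20 ± 0.15 (adjusted p = 0.271) for Ifit3b.

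**Figure D2:**
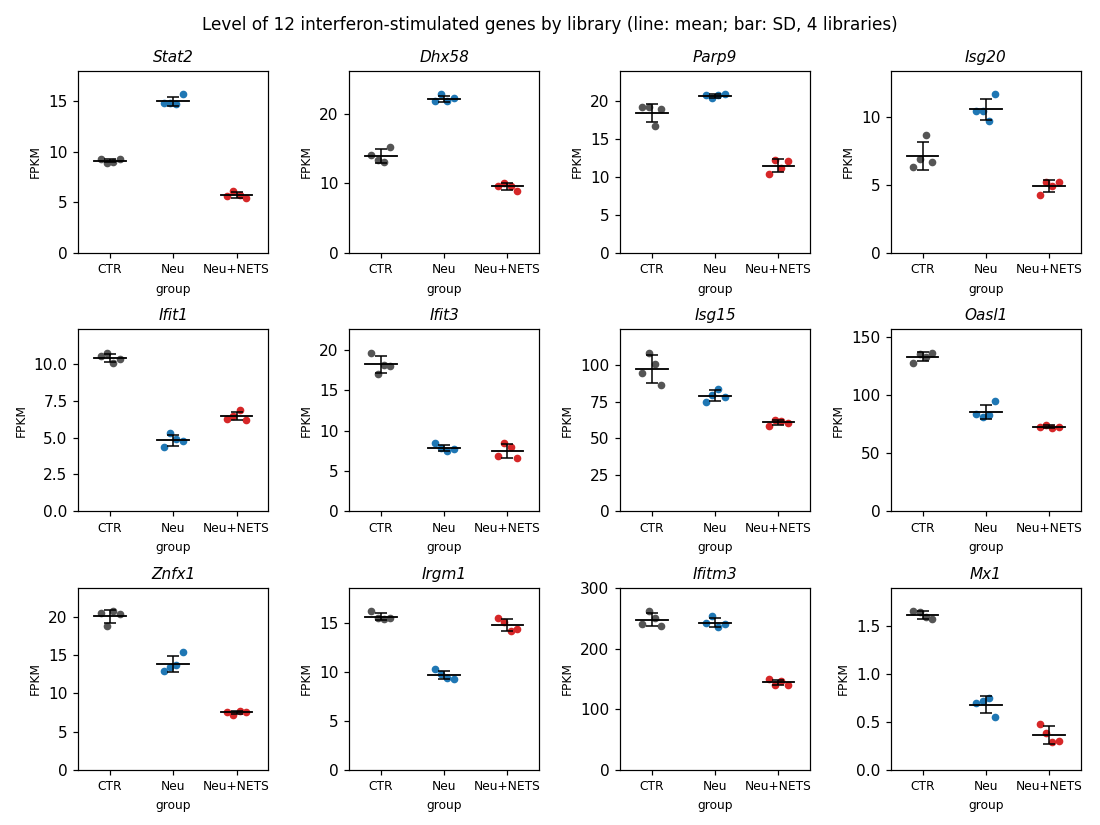
Points are FPKM in single libraries for 12 members, with the mean as a line and SD as bars over 4 libraries, and each axis starts at 0. Stat2, Dhx58 and Isg20 are highest in Neu and lowest in Neu+NETS, Isg15 and Znfx1 step down from CTR to Neu+NETS, and Irgm1 and Ifit1 are lowest in Neu.

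The other antiviral effectors are a mixed group of 13, of which 12 were tested: 5 fell, 1 rose and 6 did not pass with Neu, and 11 fell with Neu+NETS. That is 41.7% lower and 8.33% higher with Neu, beside 27.9% and 26.1% of all genes. With Neu+NETS it is 91.7% lower, beside 23.7%. Bst2 read 321, 340.3, 311 and 315 FPKM in CTR, 249, 247, 247 and 282 FPKM in Neu and 257, 276, 262 and 254 FPKM in Neu+NETS. Bst2, which encodes tetherin, a membrane protein that holds budding virions on the cell, was the most abundant member in every group. All 8 co-culture libraries lay below CTR and overlapped each other, with changes of -0.27 ± 0.041 (adjusted p = 2.1e-05) and -0.34 ± 0.041 (adjusted p = 2.5e-06). Ifitm3 read 242, 262, 251 and 238 FPKM in CTR, 242, 254, 236 and 241 FPKM in Neu and 150.4, 141, 146 and 140.4 FPKM in Neu+NETS. Ifitm3, a membrane protein that blocks viral entry from endosomes, overlapped between CTR and Neu and was lower in every Neu+NETS library. It had a log2 change of 0.026 ± 0.038 (adjusted p = 0.61) with Neu and -0.83 ± 0.039 (adjusted p = 2.4e-11) with Neu+NETS, the latter 1.78-fold lower.

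Isg20 read 6.35, 6.94, 8.66 and 6.69 FPKM in CTR, 10.4, 10.4, 9.74 and 11.67 FPKM in Neu and 4.26, 5.21, 4.95 and 5.25 FPKM in Neu+NETS. Isg20, a 3′ to 5′ RNA exonuclease, did not overlap between groups. It rose by 0.61 ± 0.10 (adjusted p = 4.4e-05) with Neu and fell with a change of -0.59 ± 0.10 (adjusted p = 0.00011) with Neu+NETS. Ifi35 read 36.0, 34.2, 32.2 and 36.6 FPKM in CTR, 21.1, 22.1, 24.2 and 23.9 FPKM in Neu and 30.5, 33.2, 29.9 and 30.2 FPKM in Neu+NETS. Ifi35, a leucine zipper protein that binds NMI, was lowest in Neu and overlapped between CTR and Neu+NETS, where only Neu+NETS replicate 2 reached the CTR range. It fell with a change of -0.55 ± 0.053 (adjusted p = 1.4e-07) with Neu and -0.22 ± 0.053 (adjusted p = 0.00301) with Neu+NETS, and was higher in Neu+NETS than in Neu by 0.33 ± 0.053 (adjusted p = 3.5e-05).

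Mx1 read 1.65, 1.64, 1.59 and 1.56 FPKM in CTR, 0.695, 0.716, 0.744 and 0.551 FPKM in Neu and 0.479, 0.385, 0.285 and 0.295 FPKM in Neu+NETS. Mx1, a dynamin-like GTPase that traps influenza virus nucleocapsids, fell in both co-cultures. Its level was low throughout, and the groups did not overlap. The log2 change was -1.18 ± 0.17 (adjusted p = 1.4e-05) with Neu and -2.18 ± 0.18 (adjusted p = 2.7e-08), or 4.53-fold lower, with Neu+NETS. On log2(FPKM + 1) with limma and no filter, a scale that shrinks the changes of low genes, these were -0.64 and -0.94. Its neighbour Mx2 had a log2 change of -0.080 ± 0.11 (adjusted p = 0.561) and -0.15 ± 0.11 (adjusted p = 0.268) and did not pass in any comparison. Rsad2, which encodes viperin, fell with a change of -0.26 ± 0.050 (adjusted p = 0.00027) and -0.58 ± 0.050 (adjusted p = 6e-08), and Rtp4, a chaperone that inhibits flavivirus replication, with changes of -0.41 ± 0.054 (adjusted p = 5.4e-06) and -0.73 ± 0.055 (adjusted p = 1e-08). Ifi44, Samd9l, Trim30a and Xaf1 did not pass with Neu and fell with Neu+NETS with log2 changes of -0.95, -0.32, -0.42 and -0.39.

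The PARP9 group holds PARP9 and its ligase partner DTX3L, which modify histones, and PARP14, a mono-ADP-ribosyltransferase. Parp9 and Dtx3l rose with Neu, Parp14 fell with Neu, and all 3 fell with Neu+NETS. Parp9 read 19.2, 19.2, 16.7 and 18.9 FPKM in CTR, 20.9, 20.3, 20.8 and 20.9 FPKM in Neu and 10.4, 12.2, 11.2 and 12.1 FPKM in Neu+NETS. Dtx3l read 9.91, 8.83, 10.03 and 10.3 FPKM in CTR, 11.3, 10.8, 10.47 and 11.5 FPKM in Neu and 6.73, 6.96, 6.50 and 6.70 FPKM in Neu+NETS. Both had every Neu library above, and every Neu+NETS library below, the CTR range. Parp9 had a log2 change of 0.22 ± 0.050 (adjusted p = 0.00114) with Neu and -0.74 ± 0.051 (adjusted p = 3.4e-09) with Neu+NETS, and Dtx3l had changes of 0.23 ± 0.045 (adjusted p = 0.0004) and -0.59 ± 0.046 (adjusted p = 1.7e-08). Their rows overlap by 682 bases on opposite strands, and the strand setting of the count is not given, so reads there cannot be assigned with certainty. Parp14 read 12.2, 12.9, 13.3 and 13.5 FPKM in CTR, 10.3, 9.87, 9.62 and 10.8 FPKM in Neu and 7.69, 8.62, 7.65 and 7.95 FPKM in Neu+NETS. Parp14 stepped down without overlap, with changes of -0.30 ± 0.042 (adjusted p = 1e-05) with Neu and -0.75 ± 0.042 (adjusted p = 2.6e-10) with Neu+NETS.

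The interferon-inducible GTPases attack the vacuoles of intracellular pathogens and respond mainly to interferon-gamma, and IRGM1 is known to restrain the other members of its family. Of 5, 4 fell with Neu and all 5 fell with Neu+NETS, beside 27.9% and 23.7% of all genes. Irgm1 read 16.2, 15.5, 15.4 and 15.5 FPKM in CTR, 10.3, 9.81, 9.39 and 9.29 FPKM in Neu and 15.5, 15.1, 14.1 and 14.4 FPKM in Neu+NETS. Every Neu library was below every other library, and of the Neu+NETS libraries only replicate 1 reached the CTR range. Irgm1 (ENSMUSG00000046879, GRCm39 chr11:48752795-48762510, minus strand) fell with a change of -0.63 ± 0.042 (adjusted p = 9.3e-10) with Neu. It was higher in Neu+NETS than in Neu by 0.51 ± 0.042 (adjusted p = 1.1e-08). Its fall against CTR with Neu+NETS, -0.13 ± 0.041 (adjusted p = 0.0169), was lost without CTR replicate 1, without Neu+NETS replicate 3 or 4, with limma on log2 FPKM and with library totals, with an adjusted p of up to 0.178.

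Gbp3 read 8.17, 7.87, 8.56 and 8.60 FPKM in CTR, 4.29, 5.45, 4.89 and 5.43 FPKM in Neu and 3.20, 3.94, 3.56 and 4.06 FPKM in Neu+NETS. Gbp3, a guanylate-binding protein, stepped down without overlap. The changes were -0.67 ± 0.085 (adjusted p = 3.1e-06) and -1.22 ± 0.086 (adjusted p = 4.6e-09), the latter 2.33-fold lower. Gbp2 fell with a change of -1.10 ± 0.17 (adjusted p = 4.4e-05) with Neu+NETS, where its libraries ran from 0.989 to 2.07 FPKM, and had a log2 change of -0.20 ± 0.17 (adjusted p = 0.336) with Neu. Igtp fell with a change of -0.45 ± 0.065 (adjusted p = 1.6e-05) and -0.36 ± 0.065 (adjusted p = 0.00021). Gbp7 had a log2 change of -0.18 ± 0.073 (adjusted p = 0.0432) with Neu and -0.24 ± 0.073 (adjusted p = 0.014) with Neu+NETS. The first call was lost under 11 other settings, among them leaving out any one of CTR replicates 1, 3 and 4 or Neu replicates 1, 2 and 4 (adjusted p up to 0.128). The second was lost without CTR replicate 3 or Neu+NETS replicate 1, with limma on log2 FPKM and with library totals (adjusted p up to 0.132).

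**Figure D3:**
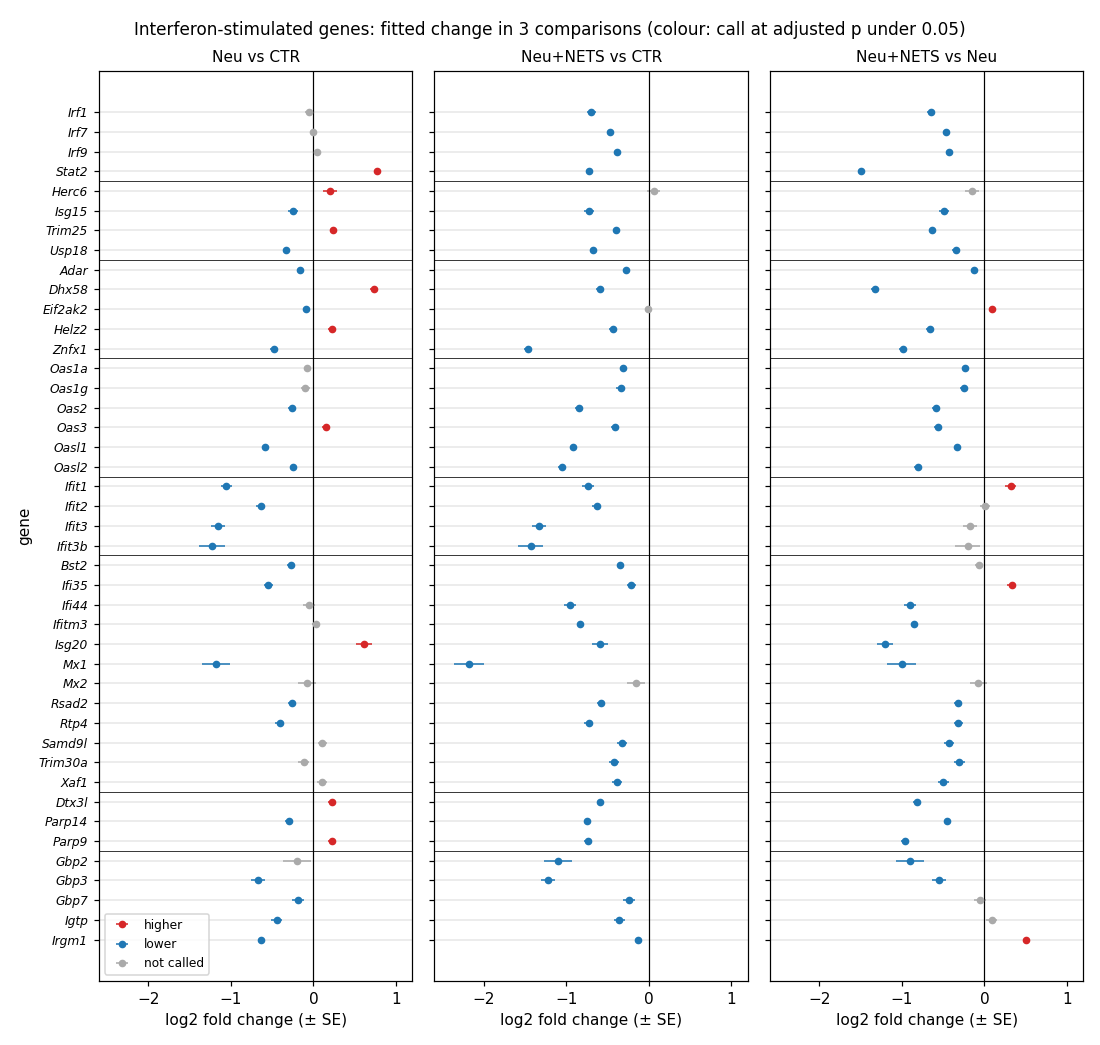
Points are log2 fold changes of the 43 members tested with SE bars in the 3 comparisons, ordered by role, in red where a member rose, blue where it fell and grey where it did not pass. The middle panel, Neu+NETS against CTR, holds 40 blue and 0 red points, and the panel of Neu against CTR holds 22 blue and 9 red.

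The members that carry the ISRE letters in the RefSeq window were set beside those that do not, as a description. With Neu, 2 of the 16 with the letters rose and 10 fell, with a median change of -0.25, and of the 19 tested without them 5 rose and 7 fell, with a median of -0.0071, beside 26.1% higher and 27.9% lower over all genes. With Neu+NETS, all 16 with the letters fell, with a median of -0.50, and 17 of the 19 without them fell, with a median of -0.47, beside 23.7% lower over all genes. Between the co-cultures, 2 of the 16 with the letters were higher and 9 lower in Neu+NETS, with a median of -0.24, and 2 of the 19 without them were higher and 15 lower, with a median of -0.50. Over all genes 29.4% were higher and 33.1% lower. Irgm1 and Stat2 both hold the letters, and they differ in direction with Neu. The 8 other tested members had no window.

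The genes that act before the members were read from lists of 21 interferon ligands, 6 receptor chains and 10 kinases, STATs and IRFs. Of the ligands, 5 had a row and 1, Ifnb1, passed the filter on low counts. Ifnb1 read 1.57, 0.803, 0.791 and 1.67 FPKM in CTR, 0.828, 0.471, 0.893 and 0.802 FPKM in Neu and 0.180, 0.497, 0.683 and 0.463 FPKM in Neu+NETS. The CTR libraries were split, with 2 near 0.8 FPKM and 2 near 1.6 FPKM, and overlapped with Neu. Ifnb1, which encodes interferon-beta, had a log2 change of -0.62 ± 0.40 (adjusted p = 0.207) with Neu and fell with a change of -1.40 ± 0.41 (adjusted p = 0.00946) with Neu+NETS, on mean counts of 55.2, 39.8 and 24 units in CTR, Neu and Neu+NETS.

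Of the 6 receptor chains, 5 fell with PMA-stimulated neutrophils against CTR, and with Neu 1 rose and 2 fell. These are 83.3% lower with Neu+NETS and 16.7% higher and 33.3% lower with Neu, beside 23.7%, 26.1% and 27.9% of all genes. Ifnar1 read 13.1, 11.66, 12.8 and 13.4 FPKM in CTR, 11.5, 11.6, 11.3 and 11.67 FPKM in Neu and 9.67, 10.7, 9.72 and 10.4 FPKM in Neu+NETS. Ifnar2 read 12.1, 12.5, 11.6 and 13.2 FPKM in CTR, 10.3, 10.9, 10.45 and 10.95 FPKM in Neu and 9.35, 10.3, 9.87 and 9.44 FPKM in Neu+NETS. The CTR libraries were highest and the Neu+NETS libraries lowest on average for both chains of the type I receptor. Ifnar1 had a log2 change of -0.086 ± 0.042 (adjusted p = 0.0994) with Neu and -0.38 ± 0.042 (adjusted p = 1.4e-06) with Neu+NETS, and Ifnar2 had changes of -0.16 ± 0.050 (adjusted p = 0.0132) and -0.39 ± 0.050 (adjusted p = 5.6e-06). Ifngr2, a chain of the interferon-gamma receptor, fell with a change of -0.76 ± 0.059 (adjusted p = 1.5e-08) with Neu+NETS. Il10rb, shared by the receptors of interleukin 10 and interferon-lambda, fell with a change of -1.08 ± 0.039 (adjusted p = 8.8e-13). Ifnlr1, the specific chain of the interferon-lambda receptor, rose by 1.12 ± 0.18 (adjusted p = 4.3e-05) with Neu, to 2.63 ± 0.0877 FPKM (SD, n = 4), and had a log2 change of -0.24 ± 0.18 (adjusted p = 0.32) with Neu+NETS.

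Of the kinases, STATs and IRFs, 5 rose and 1 fell with Neu, while 2 rose and 6 fell with Neu+NETS. Over all genes 26.1% were higher and 27.9% lower with Neu, and 21.6% and 23.7% with Neu+NETS. Stat3 read 7.61, 7.25, 7.53 and 8.13 FPKM in CTR, 11.71, 12.4, 11.9 and 12.1 FPKM in Neu and 7.43, 6.84, 7.16 and 7.24 FPKM in Neu+NETS. Every Neu library of Stat3 was above every other library. Stat3, the STAT of interleukin 6 type cytokines, rose by 0.71 ± 0.038 (adjusted p = 5.9e-11) with Neu. Irf8, a myeloid lineage factor that is also on the list of macrophage markers, rose by 0.55 ± 0.040 (adjusted p = 3.5e-09) with Neu and fell with a change of -1.11 ± 0.041 (adjusted p = 1.3e-12) with Neu+NETS. Ikbke, a kinase that activates IRF3 and IRF7, fell with a change of -1.37 ± 0.041 (adjusted p = 7.9e-14) with Neu+NETS. Irf3, the latent factor that turns on Ifnb1, went the other way and was picked after its values were seen: it fell with a change of -0.21 ± 0.057 (adjusted p = 0.00471) with Neu and rose by 0.29 ± 0.056 (adjusted p = 0.00049) with Neu+NETS.

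**Figure D4:**
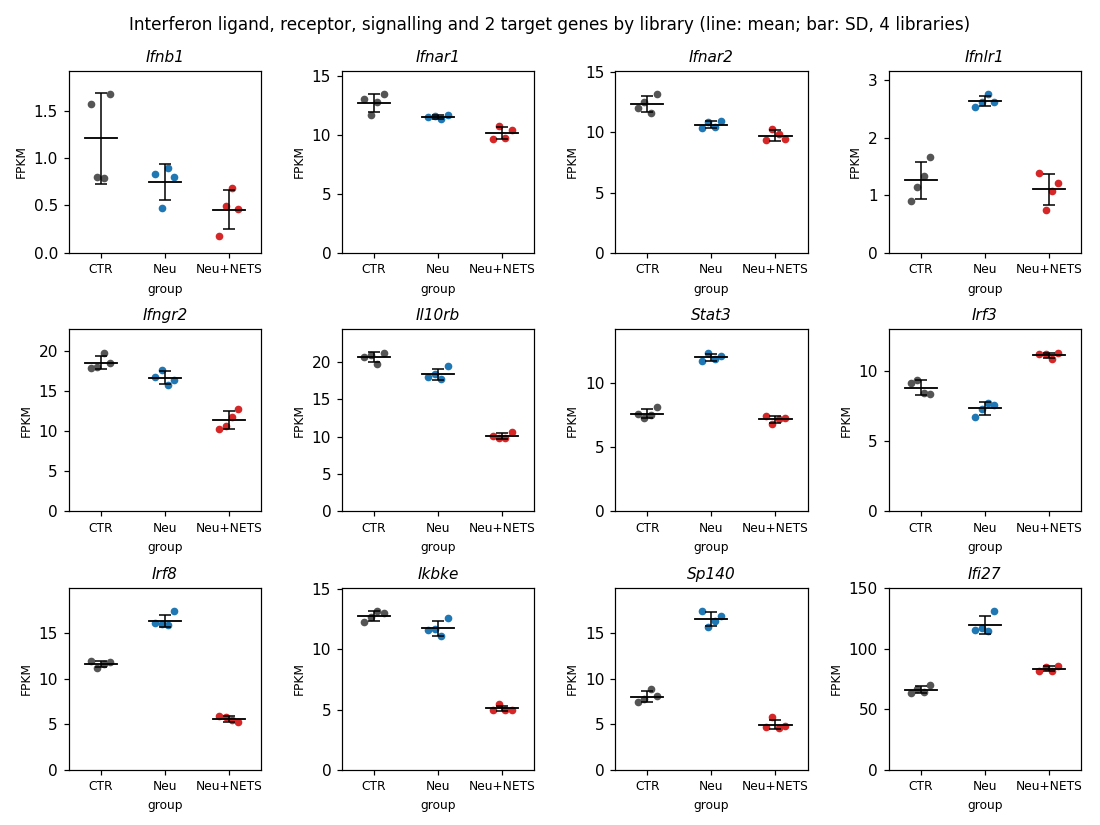
Points are FPKM in single libraries for the ligand Ifnb1, 5 receptor chains, 4 signalling genes and the interferon-induced genes Sp140 and Ifi27, with the mean as a line and SD as bars over 4 libraries; axes start at 0. Il10rb and Ikbke are lowest in all 4 Neu+NETS libraries, and Ifnlr1, Stat3, Irf8, Sp140 and Ifi27 are highest in the 4 Neu libraries.

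A second list of 72 interferon-induced genes that are not members had 69 rows and 62 tested genes. With Neu, 20 rose and 15 fell, with a median change of -0.0025, and with Neu+NETS 3 rose and 46 fell, with a median of -0.59. These are 32.3% higher and 24.2% lower with Neu, beside 26.1% and 27.9% of all genes, and 4.84% and 74.2% with Neu+NETS, beside 21.6% and 23.7%. Ifi27 read 63.5, 66.9, 64.3 and 69.9 FPKM in CTR, 116, 117, 115 and 131 FPKM in Neu and 81.9, 85.2, 81.5 and 85.9 FPKM in Neu+NETS. All Neu libraries of Ifi27, a mitochondrial apoptosis-related protein, were above the Neu+NETS libraries, which were above CTR. It rose by 0.91 ± 0.039 (adjusted p = 3.4e-12) with Neu and by 0.29 ± 0.038 (adjusted p = 8.9e-06) with Neu+NETS. Sp140, a nuclear body protein, rose by 1.10 ± 0.070 (adjusted p = 6.5e-10) with Neu and fell with a change of -0.75 ± 0.072 (adjusted p = 2.2e-07) with Neu+NETS. Ifi211, a sensor-family protein with a pyrin domain, rose by 0.46 ± 0.046 (adjusted p = 2.1e-07) and fell with a change of -2.06 ± 0.050 (adjusted p = 5.7e-15). Samhd1, which degrades dNTPs, fell with a change of -0.19 ± 0.024 (adjusted p = 3.4e-06) and -0.82 ± 0.024 (adjusted p = 8e-14). The other 2 that rose with Neu+NETS were Pnpt1 and Trim26, by 0.11 and 0.18 on the log2 scale.

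Genes of the cell types that the wells could hold moved beside these results. Of 18 measured macrophage and microglia markers, 9 rose and 4 fell with Neu, and all 18 fell with Neu+NETS, with a median of -1.06. Over all genes 26.1% rose and 27.9% fell with Neu, and 23.7% fell with Neu+NETS. Their summed FPKM was 2284 to 2374 in CTR, 2396 to 2513 in Neu and 1098 to 1131 in Neu+NETS. Lyz2 weighed most in the fall of that sum, with means of 796 FPKM in CTR, 837 in Neu and 136 in Neu+NETS. The part of these markers in the changes of the interferon module was not tested. Of 16 mature neutrophil markers, 9 had a row, summing to 61.4 to 65.2, 67.9 to 72.2 and 30.3 to 33.0 FPKM, most of it from Clec4d, which BV2 cells grown alone also held at 56.9 FPKM. S100a8, which encodes an abundant granulocyte protein, averaged 0.257, 0.189 and 0.0547 FPKM in CTR, Neu and Neu+NETS, and Il1r2 0.320, 8.03 and 0.0425 FPKM. Of the 7 mature neutrophil markers tested, 3 rose with Neu (Il1r2, Lcn2 and Mmp9) and 0 fell. That is 42.9% higher, beside 26.1% of all genes. With Neu+NETS 6 of the 7 fell, or 85.7%, beside 23.7% of all genes. CTR held BV2 cells alone, so these falls are from levels read without neutrophils. Csf3r, for example, averaged 5.15 FPKM in CTR and 0.691 FPKM in Neu+NETS. Cxcr2, the 1 that did not fall, had a log2 change of 1.69 ± 0.99 (adjusted p = 0.187) with Neu+NETS. Of 9 neutrophil precursor markers, 6 had a row. They summed to 0.0439 to 0.354 FPKM in CTR, 0.391 to 0.681 FPKM in Neu and at most 0.0929 FPKM in Neu+NETS. Mpo was 0 in 10 of the 12 libraries. Prtn3, the only 1 tested, rose by 2.65 ± 0.92 (adjusted p = 0.0227) with Neu, on mean counts of 7.5 units in CTR and 51.25 in Neu. The 5 monocyte markers summed to at most 0.101 FPKM. Bst2 was the only 1 of 4 lymphocyte and dendritic cell markers with a row that exceeded 1 FPKM, and it is itself a member. The labels also name retina as the tissue, and the 7 of 12 retinal neuron and glia markers with a row summed to 0.642 to 1.06 FPKM.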

How the data were processed

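Per the labels' protocols, poly(A) RNA was captured with oligo(dT) beads from 5 ug of total RNA. Per the submitters' processing notes, HISAT2 2.0.4, StringTie 1.3.4d, edgeR and the build GRCm39 were used; no source states the read layout, strand setting or filters. The authors deposited whole-number estimated counts and FPKM per gene for 12 libraries. Among estimated counts of 2 to 41 units, 33.0% are multiples of 4, a share that an even spread of values would partly give. So 1 fragment may be worth about 4 units, but this was not settled. Whether the fitted spread at low counts is affected is not known. The members and the gene lists were chosen with earlier results of these data known.

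Genes were filtered with edgeR 4.0.16 (R 4.3.3) filterByExpr, scaled by TMM (factors 0.970 to 1.03) and tested by quasi-likelihood over all 12 libraries with group means, leaving 16387 genes with Benjamini-Hochberg adjustment at 0.05. Each SE was taken as the size of the log2 fold change over the square root of its F statistic. The scripts were tested on simulated data. Alternatives were DESeq2 1.42.0, limma 3.58.1 on log2(FPKM + 1) and log2(FPKM + 0.1), other scalings and filters, counts divided by 4, 2 groups only, a replicate block, each library left out, and a 1.5-fold rule. Within each role, library values are given for the most abundant member, those with the smallest adjusted p against CTR, and members with calls of opposite sign. Of the other lists, the 2 genes with the smallest adjusted p in each comparison with CTR are named, plus Ifnb1, Ifnar1 and Ifnar2; 1 gene of these lists is not reported here. Promoter letters come from RefSeq tables of another build, GRCm38.p6, and transcript identity from GENCODE M21.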

Additional observations from a re-analysis of the deposited data

Results flagged for a closer look

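In 9 of 129 member-by-group sets, or 6.98%, 1 of the 4 libraries lay far from the other 3 by Dixon's criterion, which chance meets in about 1 in 20 sets. Neu replicate 4 was the high library for 3 members. It held Irf7 at 85.11 FPKM beside 75.21 to 76.81, Oas3 at 51.93 FPKM beside 43.01 to 44.42, and Bst2 at 281.7 FPKM beside 247.0 to 249.0. CTR replicate 3 was the low library for 2, with Herc6 at 1.654 FPKM beside 1.948 to 1.962 and Parp9 at 16.69 FPKM beside 18.91 to 19.17. Parp9 was also low in Neu replicate 2, at 20.35 FPKM beside 20.84 to 20.88. Igtp was high in CTR replicate 2, at 13.40 FPKM beside 12.04 to 12.25. In Neu+NETS, Helz2 was low in replicate 3, at 18.90 FPKM beside 20.13 to 20.38, and Ifi35 was high in replicate 2, at 33.25 FPKM beside 29.89 to 30.46. Of the calls on these members, that of Herc6 with Neu was lost without some libraries, and those of the other 7 members were kept when Neu replicate 4 or CTR replicate 3 was left out.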

How the results depend on the processing

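In up to 20 other settings tried for each member and comparison, no member called in the main test changed sign. A call was lost in at least 1 setting by 4 of the 31 members called with Neu against CTR (Eif2ak2, Gbp7, Herc6 and Oas3), by 2 of 40 with Neu+NETS against CTR (Gbp7 and Irgm1) and by 3 of 35 between the co-cultures (Adar, Eif2ak2 and Oas1g). Calls were gained by Oas1a, Oas1g, Samd9l, Trim30a and Xaf1 with Neu, and by Bst2, Herc6, Ifit3 and Igtp between the co-cultures. A 1.5-fold rule left 3 members higher and 7 lower with Neu, 23 lower with Neu+NETS, and 0 higher and 14 lower between the co-cultures. Over all genes that rule left 12.3% higher and 9.22% lower with Neu, and 9.90% lower with Neu+NETS. Between the co-cultures it left 13.0% higher and 19.9% lower. The median change with Neu was -0.11 with upper-quartile factors. With Neu+NETS against CTR it was -0.49 with limma on log2(FPKM + 1), with or without a filter, -0.53 on log2(FPKM + 0.1), -0.54 with library totals, and -0.63 to -0.57 with 1 library left out, the lowest without CTR replicate 2. Between the co-cultures it was -0.29 with limma on log2(FPKM + 1), with or without a filter, -0.32 on log2(FPKM + 0.1), -0.36 with library totals and -0.48 with upper-quartile factors. On log2(FPKM + 1), the change with Neu+NETS against CTR was -0.73 for Gbp2, -0.94 for Ifit3b and, with no filter, -0.94 for Mx1. The causes were not tested.

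With limma on log2(FPKM + 1), which was fitted to 11250 genes, the median over all genes moved from 0.020 to -0.089 with Neu and from -0.049 to 0.11 between the co-cultures. With library totals it was 0.0044 and 0.023, and the cause was not tested. In that limma fit the share of calls over all genes that were higher moved from 48.3 to 37.9% with Neu, from 47.6 to 59.0% with Neu+NETS and from 47.1 to 60.7% between the co-cultures. Sign changes were seen only in values that the main test did not call. With Neu, Irf7 was 0.0022 with DESeq2 and with median-of-ratios factors, 0.037 with upper-quartile factors, 0.011 with at least 40 counts and with counts divided by 4, and -0.039 to 0.0093 with 1 library left out (above 0 without CTR replicate 4 or Neu replicate 1 or 3). With limma on log2(FPKM + 1), with or without a filter, and on log2(FPKM + 0.1), Irf9 was -0.0078 and -0.0083 and Ifitm3 -0.030 in both. With Neu+NETS against CTR, Eif2ak2 was 0.015 with DESeq2 and with median-of-ratios factors, 0.038 and 0.040 with those limma fits, 0.047 with library totals, and -0.028 to 0.019 with 1 library left out (above 0 without Neu+NETS replicate 1 or CTR replicate 2). Between the co-cultures, Mx2 was 0.019 and 0.027, Gbp7 0.042 and 0.050 and Bst2 0.034 and 0.035 with those limma fits, and Gbp7 was 0.020 and Bst2 0.00093 with library totals. Ifit2 was -0.039 with upper-quartile factors, -0.0069 with at least 40 counts, -0.0059 with counts divided by 4, and -0.033 to 0.033 with 1 library left out (below 0 without Neu replicate 2 or 3 or Neu+NETS replicate 3).

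Libraries share numbers across the groups, but the correlation of deviations between same-numbered libraries ran from -0.055 to 0.043 over 12 pairs, and 1 library matched its own number best, so the numbers were not taken as pairs. With the replicate block, 8 members rose and 22 fell with Neu, 0 and 40 with Neu+NETS, and 3 and 31 between the co-cultures. Over all genes in that fit, 26.06% were higher and 27.79% lower with Neu, and 21.3% and 23.31% with Neu+NETS. Between the co-cultures these shares were 29.25% and 33.04%. The member medians were -0.16, -0.59 and -0.43. Low counts limit the precision for genes such as Ifnb1, Socs1 and S100a8, and Cmpk2 and Zbp1 were too low to compare.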

Other observations

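The lists of nucleic acid sensors and of negative regulators were not described above. Of 15 tested sensors and adaptors, 3 rose and 6 fell with Neu, and 1 rose and 9 fell with Neu+NETS, against a background over all genes of 26.1% higher and 27.9% lower with Neu and of 21.6% and 23.7% with Neu+NETS. Cgas read 12.7, 13.0, 12.3 and 13.1 FPKM in CTR, 5.07, 5.68, 5.63 and 5.28 FPKM in Neu and 13.9, 15.4, 15.7 and 15.7 FPKM in Neu+NETS. Cgas, the sensor of cytosolic double-stranded DNA, was lower in every Neu library than in every other library. It had a log2 change of -1.18 ± 0.052 (adjusted p = 5e-12) with Neu, 0.20 ± 0.050 (adjusted p = 0.00381) with Neu+NETS and 1.38 ± 0.052 (adjusted p = 3.4e-13) between the co-cultures. Sting1, the adaptor of that sensor, had changes of 0.058 ± 0.043 (adjusted p = 0.287) and -0.033 ± 0.043 (adjusted p = 0.591) and was picked after its values were seen. Ticam1, the adaptor TRIF of TLR3 and TLR4, rose by 1.16 ± 0.078 (adjusted p = 1.3e-09) with Neu and had a change of -0.18 ± 0.079 (adjusted p = 0.0813) with Neu+NETS. Ifi204, a DNA-binding protein with a pyrin domain, rose by 0.39 ± 0.032 (adjusted p = 1.9e-08) with Neu and fell with a change of -1.27 ± 0.033 (adjusted p = 1.6e-14) with Neu+NETS. Unc93b1, the chaperone of the endosomal Toll-like receptors, fell with a change of -0.84 ± 0.033 (adjusted p = 2.6e-12) with Neu+NETS. Zbp1, a sensor of Z-form nucleic acid, was listed at 0 in 7 of the 12 libraries, among them all 4 of Neu+NETS. Its mean counts of 10.25 units in CTR and 10 in Neu lay under the floor of 12. No fold is therefore given for Zbp1, although its fall counts among the 9.

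Of 10 negative regulators, 2 rose and 4 fell with Neu, and 2 rose and 5 fell with Neu+NETS. These are 20% higher and 40% lower with Neu, beside 26.1% and 27.9% of all genes. With Neu+NETS they are 20% and 50%, beside 21.6% and 23.7%. Ptpn6 read 117, 116, 113 and 113 FPKM in CTR, 146, 151, 148 and 152 FPKM in Neu and 53.4, 53.2, 56.0 and 55.4 FPKM in Neu+NETS. The groups did not overlap. Ptpn6, which encodes the phosphatase SHP-1, rose by 0.44 ± 0.026 (adjusted p = 3e-10) with Neu and fell with a change of -1.12 ± 0.027 (adjusted p = 5.4e-15) with Neu+NETS. Ptpn1, which encodes a phosphatase of JAK2 and TYK2, fell with changes of -0.65 ± 0.041 (adjusted p = 5.9e-10) and -0.71 ± 0.041 (adjusted p = 3.6e-10). Irf2bp2 fell with a change of -0.73 ± 0.037 (adjusted p = 6.4e-11) with Neu+NETS. Socs1, an inhibitor of JAK kinases, was at or under 0.488 FPKM in every library and did not pass in any comparison.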
